A study of Drosophila melanogaster with 800 samples.

Results

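Iron is taken up, carried and stored in *Drosophila melanogaster* by a small set of proteins, and 7 of their genes are described here: the transferrin family genes Tsf1, Tsf2 and Tsf3, the ferritin genes Fer1HCH, Fer2LCH and Fer3HCH, and the metal transporter gene Mvl. They were chosen by symbol, and all 7 were found among the 35014 features of the expression table. Expression was measured by directional RNA sequencing of ribosomal RNA-depleted total RNA from whole flies. The 800 libraries came from 200 inbred, sequenced lines of the Drosophila Genetic Reference Panel, each made by 20 generations of full-sib mating from wild-caught females. Each line gave 2 pools of 25 females and 2 pools of 30 males, all mated, 3 to 5 days old and reared at 25 °C on cornmeal, molasses and agar, with no treatment. Line, sex and replicate number are thus the only factors that vary in the labels, with pool size tied to sex. A pool averages over every tissue of the fly.

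Ferritin of insects is a hollow shell of heavy chains, which oxidise iron, and light chains, which help to form the mineral core. In the fly, Fer1HCH encodes the heavy chain and Fer2LCH the light chain of the abundant secreted ferritin, whereas Fer3HCH encodes a mitochondrial ferritin. Tsf1 encodes a transferrin of the haemolymph that carries iron between gut and fat body and is also known as an immune-induced protein. Tsf2 encodes the fly melanotransferrin, a protein of the septate junctions that seal epithelia. Tsf3 encodes a less studied member of the family. Mvl (Malvolio) encodes the homologue of the mammalian NRAMP and DMT1 divalent metal transporters.

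The depth behind each library, read from the steps between low values, was 7.27 to 30.57 M reads (M, 1e6), with a median of 11.45 M. The sex labels held in every library: the yolk protein gene Yp1 was higher in all 400 female libraries than in any male library, and the male dosage compensation RNA lncRNA:roX1 was higher in all 400 male libraries than in any female library. All values are log2(FPKM + 0.001), where FPKM is fragments per kilobase of gene and 1e6 reads, so levels can be compared between genes. On this scale Yp1 in males had a median of 0.89 but reached 8.95, against a lowest female value of 10.59. Mixing of female RNA into male libraries was not tested. In pools of whole flies, fewer cells of a type and less RNA per cell cannot be told apart.

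Tsf1, Fer1HCH and Fer2LCH were abundant in both sexes, and the other 4 genes spanned a wide range of levels. In females the order of mean levels ran from Tsf1 through Fer1HCH, Fer2LCH, Tsf2, Mvl and Tsf3 to Fer3HCH. In males Fer3HCH moved up to the place after Fer2LCH, followed by Tsf2, Mvl and Tsf3. Tsf1 exceeded Fer1HCH in 128 of 200 lines in females and in 172 of 200 in males, and the mean gap between these neighbours in females (0.25 log2 units) was smaller than its SD over lines (0.92). In females the libraries of neighbours overlapped except between Fer2LCH and Tsf2 and between Mvl and Tsf3. In males they overlapped except between Fer2LCH and Fer3HCH. The closest neighbours in males were Fer1HCH and Fer2LCH, 0.12 log2 units apart with an SD over lines of 0.17, and Tsf2 and Mvl, 0.15 apart with an SD of 0.20.

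**Figure D1:**
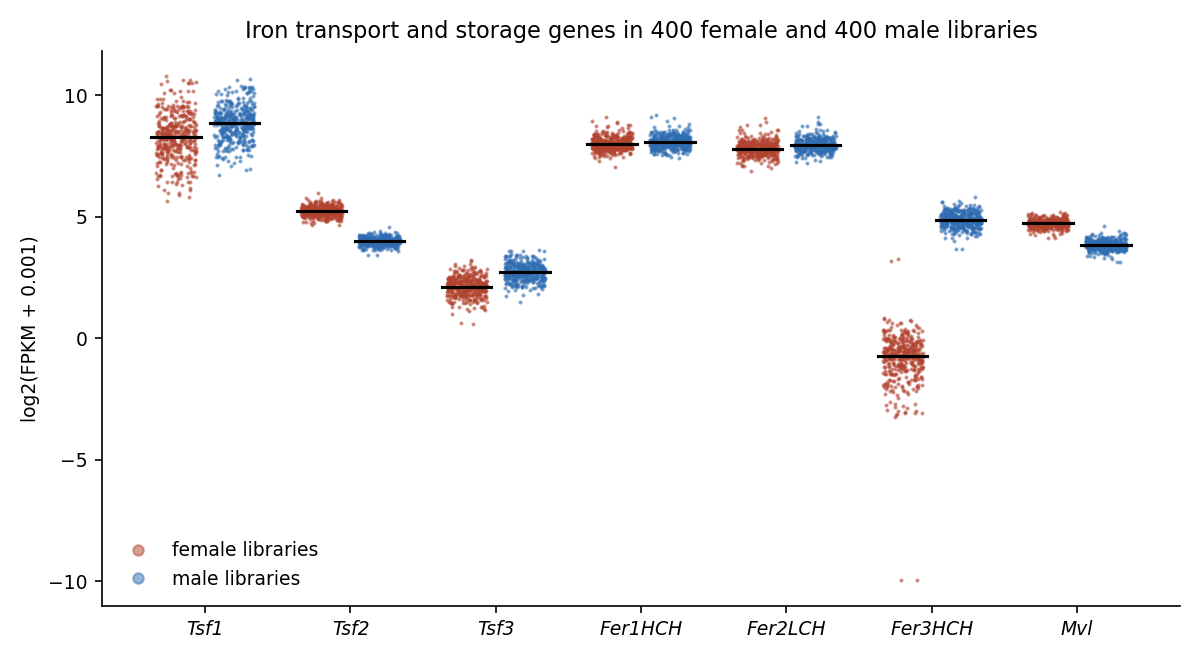
Level of each gene in each library, as log2(FPKM + 0.001), with females in red, males in blue and black bars at the medians. Fer3HCH and Tsf2 show no overlap between the sexes, and the pair of Fer3HCH points in females near 3 is line 517.

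The mitochondrial ferritin gene Fer3HCH had the largest sex difference of the set. Its FPKM ran from 0 through a median of 0.61 to 9.74 in females and from 12.6 through 29.4 to 56.0 in males, so the groups did not overlap, as was the case in one direction or the other for 22.2% of the 15447 genes tested. On the log2 scale the mean was -0.84 ± 0.78 (SD of 200 line means) in females and 4.88 ± 0.28 in males. The mean female-minus-male difference within lines was -5.72 ± 0.06 (SE, n = 200 lines), a 52.7-fold higher male level, with males higher in 200 of 200 lines (limma, adjusted p = 6.26e-170). A difference of the same sign in every line was found for 53.4% of genes. With a pseudocount of 1 FPKM the difference was -4.22, so the fold depends on how low values are treated. The female values rested on a median of 5.0 reads, and 2 of the 400 female libraries were at 0. One of these belonged to line 319, the lowest line mean in females, whose other replicate was at -0.03 log2 units.

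Among lines, the male level of Fer3HCH moved with testis markers. The 6 testis markers had a summed FPKM of 636 to 3592 in males and of 0 to 33.2 in females, where all 6 had a median below 1 FPKM and Mst84Db was at 0 in the median library. Over the 200 male line means, Fer3HCH correlated with the log level of these markers at r = 0.89, a description of lines that share libraries. The genes most like Fer3HCH in males were CG14269 (r = 0.90), tomboy20 (r = 0.90), a paralogue of the mitochondrial import receptor Tom20, and CG6661 (r = 0.90). An absolute r of at least 0.5 was reached by 2148 of 15016 genes (14.3%), all positive. The part of testis content in the male level was not tested.

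One line departed from the female pattern. In line 517 the female libraries had 9.21 and 9.74 FPKM of Fer3HCH, whereas the next highest of the other female libraries had 1.80 FPKM. The line mean was 3.24 log2 units, against 0.55 in the second-highest line, line 843. Testis markers did not move with it: they summed to 1.25 and 0.77 FPKM in these libraries, which put the line at rank 121 of 200. Males of line 517 were unremarkable for Fer3HCH at 5.18 and 4.83 log2 units, rank 67. Fer3HCH lies within Chpf on the same strand in the reference annotation, with no shared exon sequence, and Chpf was also unusual in this line: in males it was highest of all lines at 3.86 log2 units, against 2.82 in the second-highest line (line 40) and a median of 1.87, and in females it ranked 7. Line 517 was looked at because of its Fer3HCH values, so these are descriptions. Without it the sex difference of Fer3HCH was -5.74.

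**Figure D2:**
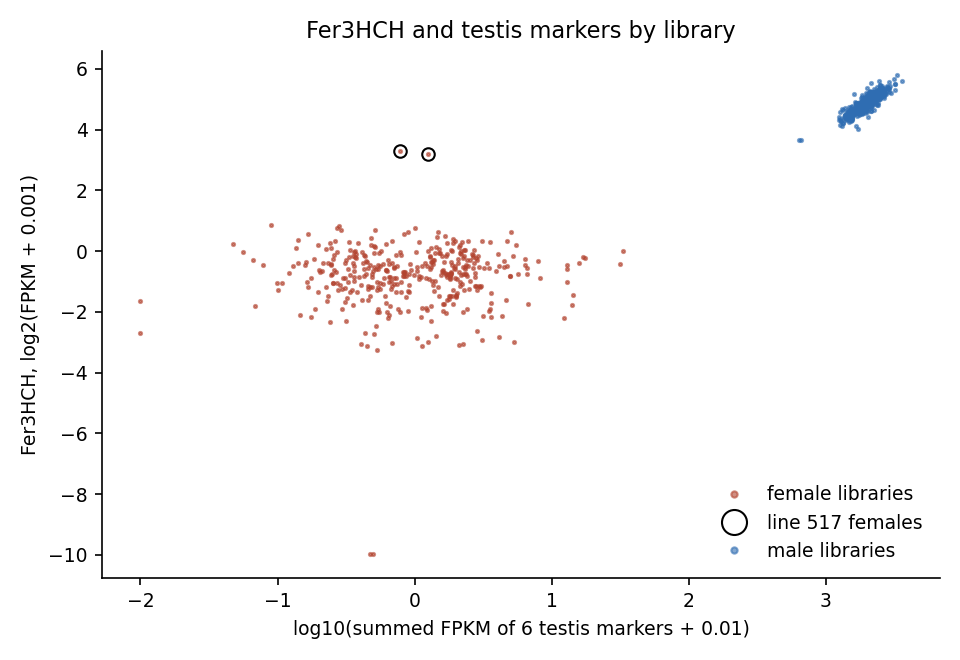
Fer3HCH level, log2(FPKM + 0.001), against the summed FPKM of 6 testis markers on a log10 scale with 0.01 added, 1 point per library, females in red and males in blue. Males lie at the upper right, and the circled libraries of line 517 females lie above every other female library at ordinary testis marker levels.

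Of the 7 genes, 1 was called higher in females and 1 higher in males at an adjusted p below 0.05 and a difference of at least 1 log2 unit, against 20.8% and 37.2% of the genes tested. Over all genes these were 3215 and 5749 calls, and 4738 and 4040 after each library was centred on its median. The female-higher gene was Tsf2, the septate junction transferrin. Its FPKM ran from 25.2 through a median of 38.0 to 63.0 in females and from 10.7 through 16.0 to 23.8 in males. All 400 female libraries lay above all male libraries. The difference was 1.24 ± 0.01 log2 units (SE, n = 200 lines; limma, adjusted p = 3.75e-162), from 0.74 in line 555 to 1.76 in line 21.

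Mvl had the same direction and a smaller size. Its FPKM ran from 17.4 through 26.7 to 36.4 in females and from 8.77 through 14.4 to 24.5 in males, and the libraries overlapped. The difference was 0.89 ± 0.01 log2 units (SE, n = 200 lines; limma, adjusted p = 8.78e-157) and females were higher in all 200 lines, but this lay under the minimum of 1. With libraries centred on their median, the difference was 1.43 and passed.

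Tsf1 and Tsf3 had higher mean levels in males, in both cases without reaching the minimum difference. Tsf1 ran from 50.2 through 316 to 1786 FPKM in females and from 106 through 470 to 1628 in males, the widest span of the abundant genes in either sex. Its difference was -0.57 ± 0.05 (SE, n = 200 lines; limma, adjusted p = 3.22e-26), with males higher in 166 of 200 lines. Tsf3 ran from 1.49 through 4.35 to 9.47 FPKM in females and from 2.81 through 6.62 to 12.3 in males, and its difference was -0.61 ± 0.02, with males higher in 195 lines. Tsf3 shares 169 bp of exon with CG15706 on the opposite strand in the reference annotation. The median difference over all genes was -0.51, close to these values. After centring, the differences were -0.03 for Tsf1 (adjusted p = 0.51) and -0.07 for Tsf3.

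The subunits of secreted ferritin were nearly level between the sexes. Fer1HCH ran from 133 through 257 to 546 FPKM in females and from 172 through 268 to 581 in males. Fer2LCH ran from 120 through 223 to 540 FPKM in females and from 150 through 248 to 561 in males. Their differences were -0.07 ± 0.01 and -0.15 ± 0.01 log2 units (SE, n = 200 lines), neither of which reached the minimum. The sign depended on scaling: after centring they were 0.47 and 0.40, with females higher in 199 and 198 of the 200 lines.

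All 6 members tested in females and all 7 tested in males varied between lines beyond the spread of replicate pools, as did 92.2% of 10931 genes in females and 89.6% of 15017 in males (adjusted p below 0.05, moderated F test). The heritability here is the share of variance between libraries of a sex that lies between lines. For Tsf1 it was 0.75 (95% interval 0.69 to 0.81) in females and 0.80 (0.75 to 0.85) in males, against medians over all genes of 0.55 and 0.51. For Tsf2 it was 0.61 in females and 0.37 (0.25 to 0.49) in males, an order that turned with centred libraries (0.44 and 0.55). Centring also put Mvl in females (0.80) above Tsf1 (0.76). The other tested values were 0.57 and 0.66 for Tsf3, 0.50 and 0.60 for Fer1HCH, 0.58 and 0.52 for Fer2LCH and 0.69 and 0.63 for Mvl, in females and males in turn. With the replicate number as a block, Fer1HCH in females had 0.79. Fer3HCH had 0.60 in males. In females it lay under the level filter, and its value there was 0.06 (0 to 0.19).

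Replicates 1 and 2 of a line differed in a common direction for the ferritin subunits, a contrast chosen after the data were seen. What the numbers stand for is not given in the sources used here. Fer1HCH was higher in replicate 1 by 0.22 ± 0.01 log2 units in females (SE, n = 200 lines; 178 lines; limma) and by 0.14 ± 0.01 in males (162 lines). Fer2LCH was higher in replicate 1 by 0.18 ± 0.01 in females (161 lines) and by 0.16 ± 0.01 in males (162 lines). Tsf1 was higher by 0.30 ± 0.04 in females (138 lines) and by 0.12 ± 0.03 in males (120 lines), whereas Mvl had 0.004 ± 0.009 and 0.015 ± 0.012. In females Tsf3 was higher in replicate 1 by 0.14 ± 0.02 (130 lines) and Tsf2 was higher in replicate 2, with a difference of -0.06 ± 0.01 (127 lines). At an adjusted p below 0.05, 68.7% of genes differed between the replicate numbers in females and 62.5% in males. A shared direction in at least 160 lines was found for 5.8% and 3.18% of genes. This cut was also set after the data were seen and lies just under the ferritin counts.

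**Figure D3:**
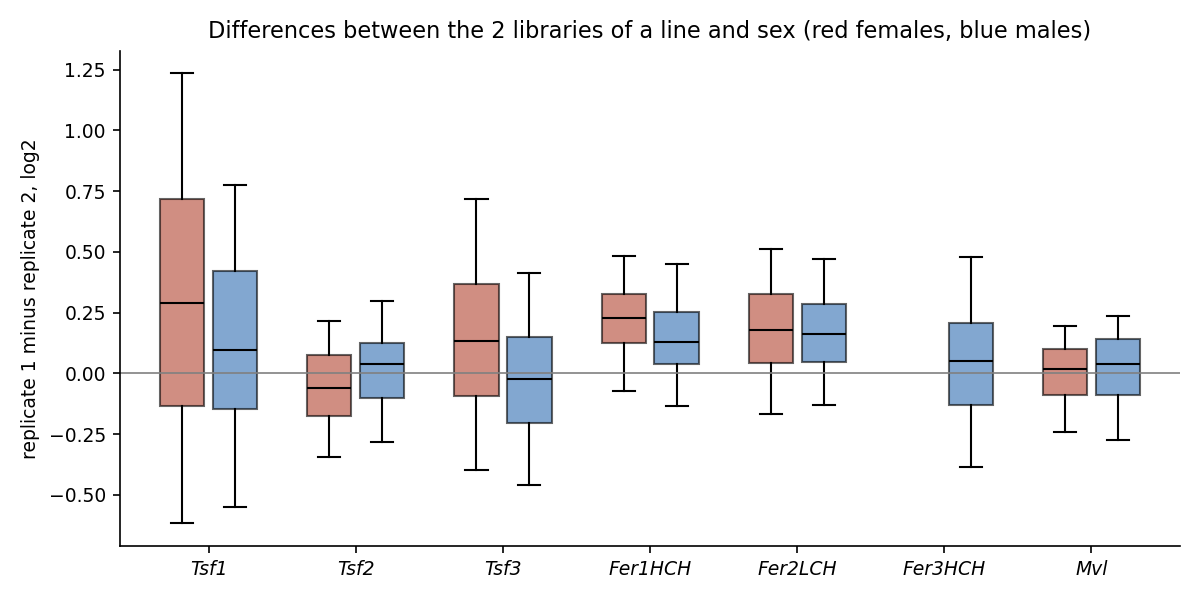
Replicate 1 minus replicate 2 of a line and sex, in log2 units, for each gene, females in red and males in blue. Boxes span the quartiles with the median as a line and whiskers reach the 5th and 95th percentiles of 200 lines, and the boxes of Fer1HCH and Fer2LCH lie above 0 in both sexes.

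The lines at the extremes of Tsf1 were far apart. In females, line 703 had 10.47 and 10.80 log2 units in its replicates and line 559 had 5.99 and 5.89. In males, line 808 had 10.18 and 10.67 and line 235 had 7.10 and 6.72. Line 808 was also the second-highest line in females. The extremes of the other genes were closer, apart from Fer3HCH in females. Its female line means ran from -5.00 in line 319, which had a library at 0, to 3.24 in line 517. Tsf2 was highest in line 732 and lowest in line 787 in females, and highest in line 738 and lowest in line 21 in males. Tsf3 was highest in lines 357 (females) and 348 (males) and lowest in lines 380 and 517. Mvl was highest in lines 28 and 409 and lowest in lines 320 and 26. In males, Fer3HCH was highest in line 642 and lowest in line 325, whose replicates were both at 3.66 against a second-lowest line mean of 4.22. The testis markers summed to 3328 and 3162 FPKM in males of line 642 and to 666 and 636 in those of line 325, against a median of 1984.

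The sex difference itself varied between lines for 4 of the 6 members tested (Tsf1, Tsf2, Tsf3 and Mvl), against 75.9% of 10501 genes. Tsf1 had the largest interaction of the 6, with an SD of 0.37 log2 units beyond replicate error (moderated F test, adjusted p = 3.04e-16). The median of this SD over all genes was 0.12. This SD is the component per sex, so the female-minus-male difference varied more. For Tsf1 the SD of that difference over lines was 0.66, with replicate error included. In line 737, Tsf1 was at 6.21 and 5.98 in females and at 9.16 and 8.71 in males. In line 348 it was at 10.53 and 8.10 in females and at 8.51 and 8.01 in males, so the female replicates of that line differed widely. Fer1HCH (adjusted p = 0.80) and Fer2LCH (adjusted p = 0.89) did not pass, although with centred libraries their adjusted p were 0.0017 and 0.025. With the replicate number as a block both passed as well (adjusted p = 3.7e-09 and 0.00054).

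Lines high in one sex tended to be high in the other for 6 of 6 members tested, as for 83% of 10501 genes. Pearson's r between female and male line means was 0.76 for Fer2LCH (rho = 0.69) and 0.73 for Fer1HCH (rho = 0.65). It was 0.69 for Tsf1 (rho = 0.65), 0.59 for Mvl (rho = 0.58) and 0.49 for Tsf3 (rho = 0.49). These 5 had the smallest p that 100000 permutations can give, 1e-05, and an adjusted p over all genes of 1.85e-05. Tsf2 had the lowest r of the 6, 0.25 (rho = 0.21, permutation p = 0.00049, adjusted p over all genes = 0.00075), and with crossed replicate numbers alone the larger of its permutation p was 0.19. The median over all genes was 0.36. Without the 2 lines farthest from the median, the 6 values ran from 0.21 to 0.74. For Fer3HCH, whose female level was not tested, r was -0.04 (rho = -0.08, permutation p = 0.56).

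Fer1HCH and Fer2LCH varied together over lines more closely than either did with any other gene tested. Their r over 200 line means was 0.80 in females (rho = 0.77) and 0.73 in males (rho = 0.69), each with a permutation p of 1e-05 and an adjusted p of 0.00012 over the 36 pairs tested. Without the 2 farthest lines r was 0.78 and 0.68. Taking the genes from different libraries of a line, so that no library contributed to both, gave 0.62 and 0.52. The subunits also moved together between the 2 replicates of a line: their replicate differences had r = 0.72 in females and 0.68 in males. In the authors' deposited table of line means, r was 0.82 in females and 0.75 in males. Each was the other's closest gene in both sexes, and the only one with an absolute r of at least 0.5, which is 0.00915% of 10930 genes in females and 0.00666% of 15016 in males. The genes lie side by side on chromosome arm 3R and share 118 bp of exon on opposite strands in the reference annotation. The libraries kept strand, but whether the counting used it is not given in the sources used here.

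After its partner, the genes closest to Fer1HCH were atl (atlastin, r = 0.33) and CG8839 (r = 0.32) in females. In males they were FeCH, ferrochelatase, the last enzyme of heme synthesis (r = 0.34), and atl (r = 0.33). Those closest to Fer2LCH were CG1246 (r = 0.40) and COX6B, a cytochrome oxidase subunit (r = 0.37), in females. In males they were Cdc50 (r = 0.30) and CSN1b (r = 0.29).

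The balance of heavy over light chain mRNA varied less between lines than either gene, which follows from their correlation and similar spread. Fer1HCH exceeded Fer2LCH by a mean of 0.20 ± 0.16 log2 units (SD of 200 line means) in females and 0.12 ± 0.17 in males, in 182 and 152 lines. The SD between lines beyond replicate error was 0.14 and 0.15, against 0.19 to 0.23 for the single genes. The balance of a line was similar in both sexes (r = 0.76, rho = 0.69, permutation p = 1e-05; r = 0.71 without the 2 farthest lines). Line 73 was lowest in both sexes and in every library, with -0.69 and -0.72 in females and -0.74 and -0.80 in males. Line 705 was highest in females (0.60) and line 426 in males (0.57). Line 441 had the highest Fer1HCH in both sexes, at 9.09 and 8.93 in females and 9.18 and 9.08 in males. Line 161 had the highest Fer2LCH in both sexes, at 9.08 and 8.57 in females and 9.13 and 8.89 in males. The lowest Fer1HCH line means were in line 57 (females) and line 301 (males), and the lowest Fer2LCH means in lines 804 and 855.

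**Figure D4:**
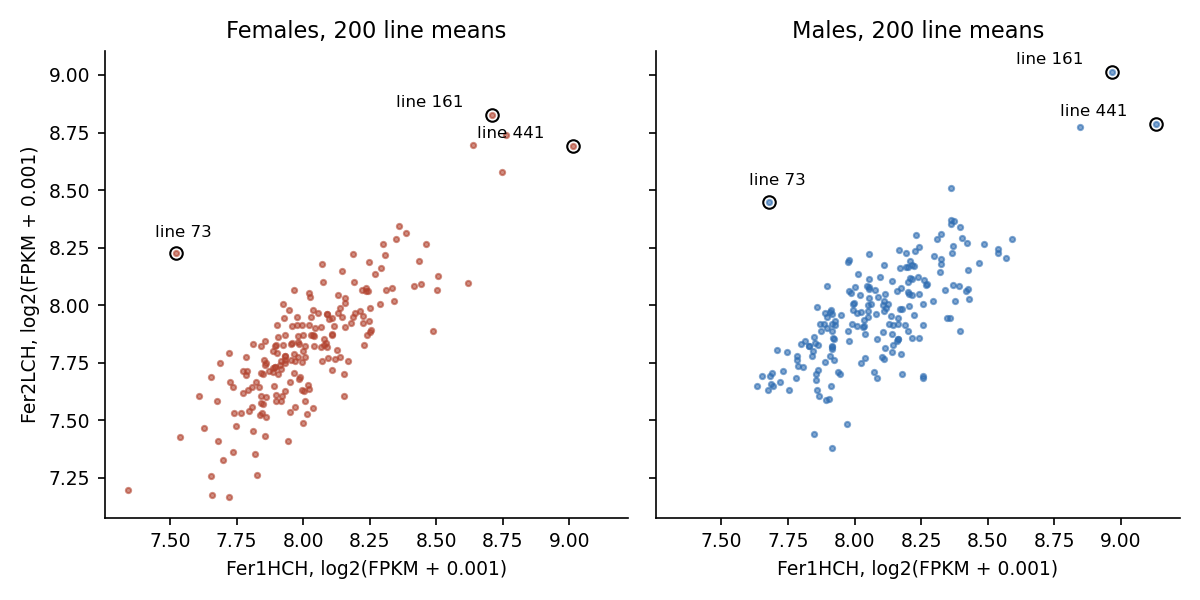
Line means of Fer2LCH against Fer1HCH in log2(FPKM + 0.001), with females on the left and males on the right, 1 point per line. Lines 441 and 161 are at the upper end in both sexes, and line 73 lies above the trend of the other lines, with a light chain level higher than its heavy chain level.

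Of the 36 pairs of members tested (15 in females, 21 in males), 15 passed at an adjusted p below 0.05 over the pairs, 13 of them positive. Other than the ferritin subunits, these pairs had an absolute r of at most 0.35. The share of all gene pairs that would pass was not computed. In females the median absolute r with all genes tested was 0.33 for Tsf2, 0.18 for Mvl, 0.17 for Tsf3 and 0.06 for Tsf1. In males it was 0.06, 0.09, 0.07 and 0.08 in the same order, and 0.13 for Fer3HCH. With centred libraries, r was 0.57 for Tsf2 and Mvl in females and -0.43 for Fer3HCH and Mvl in males. Tsf1 and Tsf3 were positively related in females (r = 0.28, rho = 0.28, adjusted p = 0.0004) and males (r = 0.30, rho = 0.30, adjusted p = 0.00036; permutation). Tsf2 and Mvl were positively related in females (r = 0.35, rho = 0.34, adjusted p = 0.00012) and in males (r = 0.22, rho = 0.24, adjusted p = 0.0063). Tsf2 and Tsf3 had opposite signs in the sexes, -0.27 in females (rho = -0.27, adjusted p = 0.0004) and 0.29 in males (rho = 0.24, adjusted p = 0.00036); the difference between the sexes was not tested. The other negative pair was Fer3HCH and Mvl in males (r = -0.19, rho = -0.18, adjusted p = 0.018), which did not pass without replicate 1 (adjusted p = 0.15) or without replicate 2 (0.54) but passed with centring (9e-05). Without replicate 1, Tsf2 and Mvl in males did not pass either (adjusted p = 0.13). When the 2 genes were taken from different libraries of a line, 5 of the 36 pairs passed: the ferritin subunits in both sexes, Tsf1 and Tsf3 in females, Tsf2 and Mvl in females, and Fer3HCH and Mvl in males (r = -0.22, adjusted p = 0.038). Tsf2 and Tsf3 did not pass there in either sex (adjusted p = 0.11 in females and 0.24 in males). Nor did Tsf1 and Tsf3 in males (0.14) or Tsf2 and Mvl in males, whose r was 0.05. Over male lines the testis markers had r = 0.89 with Fer3HCH and -0.23 with Mvl. The part of testis content in the relation of Fer3HCH and Mvl was not tested.

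**Figure D5:**
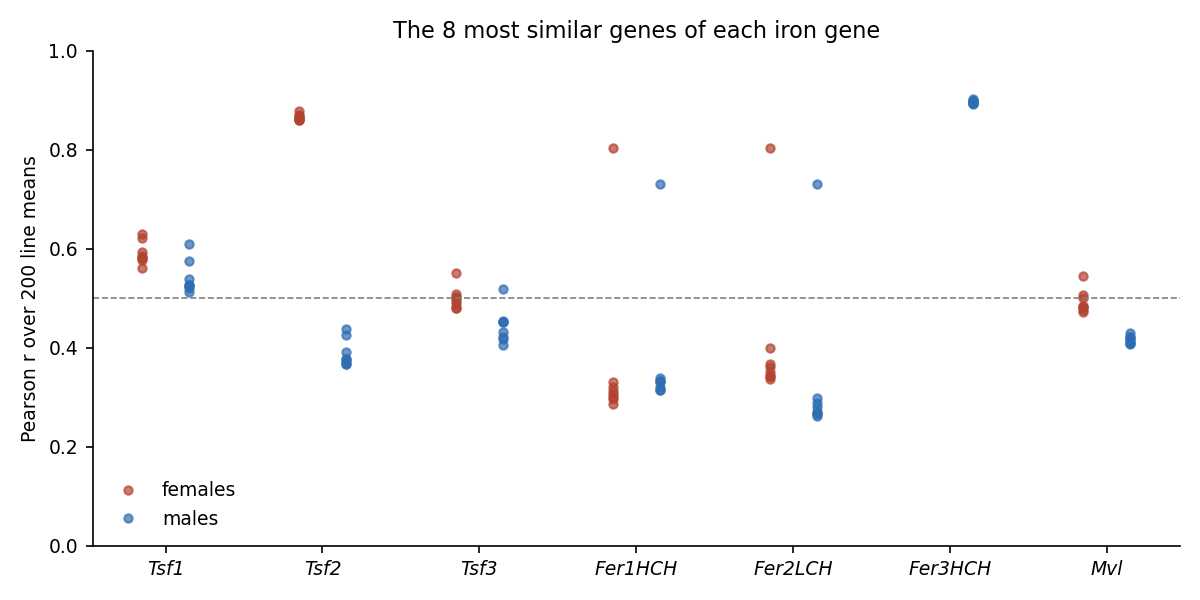
Pearson r over 200 line means between each iron gene and the 8 annotated genes most like it, females in red and males in blue, with a dashed line at 0.5. The partner subunit stands far above all other genes for Fer1HCH and Fer2LCH, and Fer3HCH has no female points because it was under the level filter.

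The genes most like Tsf1 over lines included genes of small immune peptides. In females they were BomBc3 (r = 0.63), a Bomanin peptide gene, Bbd (r = 0.62), whose product acts with the short Bomanins, and Dso1 (r = 0.59), a Daisho peptide gene. In males they were nec (r = 0.61), which encodes a serpin that restrains Toll signalling, Bbd (r = 0.58) and the Bomanin gene BomS2 (r = 0.54). Only 13 genes in each sex reached an absolute r of 0.5, 0.119% of those tested in females and 0.0866% in males, and all 13 were positive. Of the antimicrobial peptide genes, the closest in females were Mtk (r = 0.54), DptB (r = 0.46) and AttC (r = 0.45). In males they were Mtk (r = 0.48), AttC (r = 0.40) and DptB (r = 0.39). Such genes followed to unequal degrees: Def had r = 0.10 in both sexes and AttD had 0.03 in females. CecA1 had 0.28 in females, rank 194 of 10930 genes, and 0.01 in males. The summed level of 4 fat body markers had r = 0.26 with Tsf1 in females and 0.37 in males. Midgut markers had 0.19 and 0.27, and hemocyte markers 0.16 and 0.22. The other marker sets had smaller absolute r. The part of tissue content was not tested.

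For Tsf2 the similar genes differed by sex. In females they were phol (r = 0.88), Cse1, a nuclear export factor for importins (r = 0.87), and smg, a regulator of maternal mRNAs (r = 0.87). An absolute r of 0.5 was reached by 3446 genes there (31.5%). The 6 ovary markers, which summed to 815 to 4023 FPKM in females and to 0.185 to 362 in males, had r = 0.46 with Tsf2 and 0.37 with Mvl over female lines. Midgut, muscle and hemocyte markers had r = -0.35, -0.33 and -0.27 with Tsf2 in females, and the other marker sets had smaller absolute r. The part of ovary or other tissue content was not tested. In males no gene reached 0.5 with Tsf2, and the closest were udt (r = 0.44), Cont (r = 0.43) and kune (r = 0.39). Cont encodes the adhesion protein Contactin and kune a claudin, both components of septate junctions, and udt is needed for septate junction assembly.

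Tsf3 was closest in females to Pu (r = 0.55), which encodes GTP cyclohydrolase of pteridine synthesis, CG17919 (r = 0.51) and the serpin gene Spn77Ba (r = 0.50). In males it was closest to Sp7 (r = 0.52), a serine protease gene of the melanisation cascade, the serpin gene Spn28Dc (r = 0.45) and the cuticle protein gene Cpr60D (r = 0.45). An absolute r of 0.5 was reached by 3 genes in females (0.0274%) and 1 in males. Mvl was closest to vret (r = 0.55), a gene of the germline piRNA pathway, TM9SF2 (r = 0.51) and mats (r = 0.50) in females. In males it was closest to Fim (r = 0.43), which encodes the actin-bundling protein fimbrin, CG17598 (r = 0.42) and udt (r = 0.42).

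Related genes were counted by the same rule, which called 20.8% of all genes higher in females and 37.2% higher in males. Of 8 heme synthesis genes, 1 passed: Alas, the first and rate-limiting enzyme, was higher in males (-1.13 ± 0.02 log2 units, SE, n = 200 lines). Of 8 iron-sulfur cluster genes, bcn92 alone passed, higher in females (1.04 ± 0.02). Of 8 tested genes of iron regulation and trafficking, nemy, a cytochrome b561 gene, was higher in males (-1.46 ± 0.02). Of 21 tested genes of copper, zinc and metallothionein function, 3 passed in each direction. The largest were the copper transporter gene Ctr1C (-11.4 ± 0.13) and the zinc transporter genes Zip88E (1.43 ± 0.02) and foi (1.22 ± 0.01). The female mean of Ctr1C was -8.80, near the floor of the scale at -9.97, so the size of its difference depends on the pseudocount. Of 12 antimicrobial peptide genes, CecA1 (-3.77 ± 0.13) and CecA2 (-1.35 ± 0.17) were higher in males and Def (2.52 ± 0.10) in females. CecA1 and CecA2 are near-identical copies, so their separate values are uncertain. The list medians were 0.36, 0.52, -0.43, 0.03 and 0.21 log2 units in the order given, against -0.51 over all genes. With centred libraries Alas, nemy and CecA2 fell under the minimum (-0.58, -0.92 and -0.80). The lists then held 3, 4, 1, 5 and 1 female-higher and 0, 0, 0, 1 and 1 male-higher calls, in the same order.

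The deposited table of sequence variant density gave a value per gene and line. None of the 13 relations between a member's density and its level in a sex passed over all lines (Pearson's r, permutation, adjusted over all genes), against 19.1% of genes in females and 24.3% in males. By rank, 4 passed, against 27.1% and 32.8% of genes. For Fer1HCH, rho was 0.20 in females (adjusted p = 0.021) and 0.26 in males (adjusted p = 0.0018), where r was 0.16 and 0.15, and 0.16 and 0.14 without the 2 farthest lines. Without lines at the density floor, r was 0.14 in females (adjusted p = 0.19) and 0.26 in males (adjusted p = 0.0037). The others were Mvl in both sexes, whose lines fell into separate clusters: 53 lines had a log2 density of 9.10 to 9.12 and the other 147 at most 3.03. The 53 lines had a mean Mvl level of 4.78 ± 0.14 in females against 4.72 ± 0.16 in the others (SD; permutation p = 0.028, adjusted over the sexes 0.057). In males the means were 3.87 ± 0.16 and 3.84 ± 0.18 (permutation p = 0.31). Within the 147 lines, r was 0.10 in females (permutation p = 0.21) and 0.003 in males (p = 0.97), while rho was 0.26 (p = 0.0016) and 0.18 (p = 0.029).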

How the data were processed

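Gene expression was deposited by the authors as log2 FPKM for each library, and the values show a pseudocount of 0.001 FPKM. The submitters' processing notes name cutadapt, BWA 0.7.10, STAR 2.4.0e, Cufflinks 2.2.1, HTSeq and edgeR, with the builds BDGP5 and dm3. The authors' deposited log2 line means and log2 variant density (its length unit is not given in the sources used here) were used as described. Depth was read from the spacing of low FPKM values: under 20 reads, 96.6% of the deposited values fell within 0.05 reads of a whole number. These are read totals behind the FPKM, and counting error applies to them only.

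Genes entered a test when their log2 FPKM averaged 0 or more. Female and male line means were compared on 200 within-line differences by the moderated test of limma 3.58.1 (R 4.3.3). Line variation and its interaction with sex were tested with F ratios over replicate libraries, moderated by limma. Benjamini-Hochberg adjustment ran over all genes, also for the cross-sex and density relations, for which adjustment over the members had been planned. Tests were two-sided, with 100000 permutations over lines (10000 where lines were left out for every gene), run in numba 0.67.0 and scipy 1.17.1 under Python 3.11.15. Only the tests of the sex difference, line variation and their interaction were tried on simulated data. Heritability intervals are 95% intervals from the F distribution.

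Named genes were the members, the sex check genes, the 3 genes most like each member in each sex, the 3 called genes with the largest sex difference in each list, the 3 antimicrobial peptide genes closest to Tsf1 and the extreme lines. Line 517, line 73, Chpf, CecA1, AttD and Def beside Tsf1, and the clusters of Mvl were singled out after their values were seen. The members and lists were chosen with earlier results of these data known. Symbols come from a gene name table, and Drs was not analysed here. The replicate contrast was added after the data were seen. Replicates are separate pools of flies per the labels. Alternatives covered the pseudocount, centring, the filter, single replicates, the replicate number as a block, ranks and left-out lines.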

Additional observations from a re-analysis of the deposited data

Results flagged for a closer look

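Results were looked at again where the sex difference of a gene was not the same in all lines by a test of the interaction of line and sex. This held for Tsf1, with an SD of the interaction of 0.37 log2 units, Tsf3, with 0.17, Tsf2, with 0.11, and Mvl, with 0.075 (moderated F test, adjusted p from 3.04e-16 for Tsf1 to 1.47e-08 for Mvl). The test covers 200 lines with 2 libraries per line and sex, and 75.9% of all genes tested passed it. No cause of these differences was tested.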

How the results depend on the processing

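With libraries centred on their median, the sex difference reversed for Fer1HCH (0.47) and Fer2LCH (0.40), and the replicate difference of Mvl in females, not called, changed sign (-0.0084). Without the filter on low values, 4935 genes were called female-higher and 13949 male-higher, 17450 varied between lines in females and 22063 in males, and 13719 passed the interaction test. More genes were tested there. At a minimum difference of 2, 1237 and 3274 genes were called by sex, and Tsf2 was not. Variant density gave 4 relations by rank, 2 without lines at the density floor and 1 without the 2 farthest lines. Using 1 replicate gave 3175 to 3240 female-higher and 5698 to 5810 male-higher genes, 10 to 19 called pairs of members, and ferritin heavy-to-light differences of 0.176 to 0.219 in females and 0.108 to 0.133 in males.

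Same-numbered female and male libraries of a line showed little common deviation: over 15447 genes, r ran from -0.052 to 0.087 in the 200 lines. These genes passed the filter in either sex, so some lay near the floor in the other. The check therefore cannot exclude that the numbers pair the sexes. With the replicate number as a block, 3216 genes were called female-higher and 5749 male-higher, and the interaction passed for Fer1HCH (adjusted p = 3.7e-09) and Fer2LCH (adjusted p = 0.00054). Heritability in females was then 0.79 for Fer1HCH and 0.73 for Fer2LCH. Taking the genes of a pair from different libraries left 5 pairs, and the estimate for Tsf2 between the sexes from crossed numbers alone was 0.40 (largest permutation p = 0.19), against 0.39. For single members, direction and call were kept in 59 alternatives for the sex difference, while 2 reversed, 1 gained the call and 1 lost it. They were kept in 30 and 35 (each one tried) for line variation in females and males. For the interaction 20 were kept and 4 gained the call. For the cross-sex relation 41 were kept and 1 lost it, and for the called pairs 114 were kept and 21 no longer passed. Part of this was fixed in advance. A larger minimum cannot change an uncalled gene, and the filter and the block left the members' sex differences unchanged. For the cross-sex relation, plain r and the components with the block reused the main permutation p, so their outcome could not change. Tsf1 counts as kept after centring, where its difference was -0.03 (limma, adjusted p = 0.51). Causes were not tested. Depth limits Fer3HCH in females.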
